A study of Homo sapiens with 18 samples.

Results

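The interferon response and DNA sensing genes described here are 48 genes given by name, of 63677 genes in the count table. They comprise 35 interferon-induced antiviral effectors, 5 genes of ISG15 conjugation (ISG15, UBE2L6, HERC5, HERC6 and USP18), 4 transcription factors (STAT2, IRF1, IRF7 and IRF9) and 4 genes of nucleic acid sensing (CGAS, STING1, IFI16 and IFIH1). Each name matched 1 Ensembl gene ID, and 45 of the 48 passed the filter on low counts and were tested. IFITM1, XAF1 and TRIM22 did not pass it.

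Paired-end sequencing of poly(A) RNA was done in WM989 cells, a human melanoma line. For 7 days they were kept in 4 µM EPZ5676, which blocks DOT1L, the enzyme that methylates lysine on the core of histone H3, or in the solvent DMSO. From each arm came cells sorted for high NGFR and EGFR (high cells), cells from the low gate of the same sort (low cells) and the unsorted culture (bulk cells). The groups are therefore EPZ5676 high, DMSO high, EPZ5676 low, DMSO low, EPZ5676 bulk and DMSO bulk, with 3 libraries each, and no interferon or DNA ligand was named among the treatments. The labels do not say whether the replicates of a group came from separate cultures, so p-values measure the spread between these libraries, which may be technical.

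Type I interferons bind the IFNAR receptor, whose kinases JAK1 and TYK2 activate STAT2. STAT2 and IRF9 are part of a complex that binds the interferon-stimulated response element (ISRE) upstream of many antiviral genes. Interferon gamma acts through JAK1 and JAK2 on genes that carry the gamma-activated site (GAS). Cytosolic DNA is read by cGAS, whose cyclic dinucleotide product activates STING and leads to interferon transcription. Tumour cells can show a lasting interferon-stimulated programme without infection.

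Gene counts per library ran between 13383741 and 26311674. Levels are given as CPM, counts per 1000000 of a library size scaled by the TMM method. The library labelled DMSO bulk replicate 1 stood apart from its group: its NGFR level was 220.3 CPM, against 12.6 and 9.24 CPM in the other DMSO bulk libraries. In 6 libraries, 5 of them EPZ5676-treated, 18.9% to 28.7% of fragments were assigned to no annotated feature (the no-feature share). This share was 12.8% to 15.2% in the other 12. Melanocyte markers were present in all groups and lower in high cells. The summed level of 6 markers was 1711 to 1875 CPM in EPZ5676 high and 1119 to 1330 CPM in DMSO high, against 13895 to 14080 CPM in EPZ5676 low and 11127 to 11599 CPM in DMSO low. Of 10 leukocyte markers, the sum stayed between 0.831 and 3.09 CPM in all 18 libraries.

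Promoter sequences were looked up for the members because the ISRE and GAS elements are the textbook entry points of interferon signalling. RefSeq promoter windows of GRCh38.p14, which cover 250 bases before to 50 bases after a gene's start, were at hand for 37 of the 48 members. IFIT2, IFITM2, MX2, OAS2, OASL, USP18, GBP2, IRF7, TRIM22, CGAS and STING1 had no entry. The ISRE core was searched as 2 half-sites GAAA with any 2 bases (NN) between them, on both strands. The GAS element was searched as TTC, any 3 bases and GAA, which reads the same on both strands. Matches of one motif may overlap each other or the other motif. An ISRE core was found in 25 of the 37 members (67.6%), against 4.38% of 27305 genes with a window, and a GAS match in 13 (35.1%), against 9.38%. By their difference between high and low cells under DMSO, 17 of 22 members that were higher, 5 of 7 that were lower and 2 of 6 that did not pass the test had an ISRE core. A match describes letters in a window and not a bound site.

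The 180 bases before the start are shown for 8 members, 5′ to 3′ in the gene's direction, with matches of the motif named for each gene in capitals. EPSTI1, BST2, IFI44L and RSAD2 had the 4 largest upward differences of high minus low cells, under DMSO, among members with an ISRE core in these bases. ISG20 and IFI6 show that members lower in high cells carry the same core, ISG15 that a member with no called difference does, and IRF1 a GAS match. Capitals mark the ISRE core in the first 7 sequences and the GAS match in IRF1. EPSTI1 and BST2 also hold GAS matches in these bases, which are not marked.
EPSTI1 (chr13:42992242-42992421, minus strand): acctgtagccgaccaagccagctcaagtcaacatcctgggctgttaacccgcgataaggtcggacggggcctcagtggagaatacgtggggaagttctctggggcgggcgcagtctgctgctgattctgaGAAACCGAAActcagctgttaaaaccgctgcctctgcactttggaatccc
BST2 (chr19:17405631-17405810, minus strand): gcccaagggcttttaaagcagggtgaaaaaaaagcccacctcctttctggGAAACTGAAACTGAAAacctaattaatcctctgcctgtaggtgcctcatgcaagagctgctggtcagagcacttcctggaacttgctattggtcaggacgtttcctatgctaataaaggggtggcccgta
IFI44L (chr1:78620268-78620447, plus strand): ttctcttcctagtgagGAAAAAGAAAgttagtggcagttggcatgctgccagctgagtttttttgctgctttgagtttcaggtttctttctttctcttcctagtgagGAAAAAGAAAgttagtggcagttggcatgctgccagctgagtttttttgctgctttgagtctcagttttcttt
RSAD2 (chr2:6877597-6877776, plus strand): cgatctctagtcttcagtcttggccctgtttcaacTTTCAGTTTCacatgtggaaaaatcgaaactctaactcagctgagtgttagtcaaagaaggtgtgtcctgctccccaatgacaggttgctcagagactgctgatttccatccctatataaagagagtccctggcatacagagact
ISG20 (chr15:88638836-88639015, plus strand): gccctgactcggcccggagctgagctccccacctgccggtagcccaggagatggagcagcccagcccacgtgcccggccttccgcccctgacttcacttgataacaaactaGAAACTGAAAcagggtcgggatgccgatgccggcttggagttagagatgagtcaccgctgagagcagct
IFI6 (chr1:27672193-27672372, minus strand): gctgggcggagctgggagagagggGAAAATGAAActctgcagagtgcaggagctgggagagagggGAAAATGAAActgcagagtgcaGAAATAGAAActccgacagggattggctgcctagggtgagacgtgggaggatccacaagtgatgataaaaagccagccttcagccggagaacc
ISG15 (chr1:1013317-1013496, plus strand): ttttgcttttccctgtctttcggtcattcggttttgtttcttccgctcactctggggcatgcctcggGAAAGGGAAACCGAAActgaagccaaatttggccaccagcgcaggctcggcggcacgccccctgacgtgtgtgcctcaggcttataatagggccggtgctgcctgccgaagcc
IRF1 (chr5:132490774-132490953, minus strand): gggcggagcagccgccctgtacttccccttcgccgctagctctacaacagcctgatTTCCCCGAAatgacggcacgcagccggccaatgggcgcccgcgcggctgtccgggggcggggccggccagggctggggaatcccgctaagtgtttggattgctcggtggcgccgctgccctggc

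**Figure D1:**
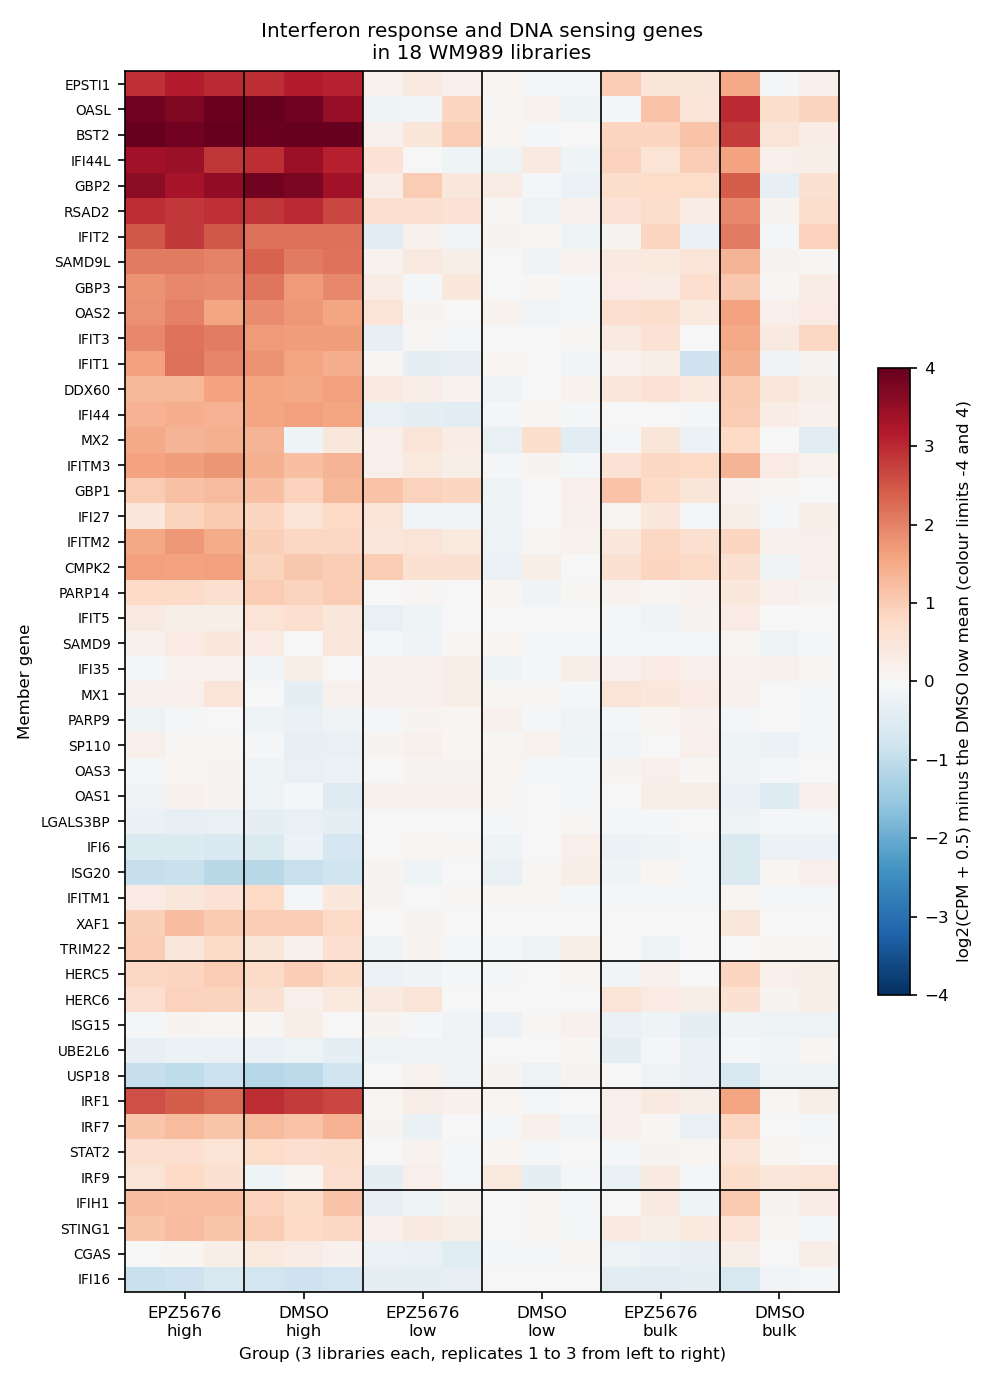
Level of each of the 48 members (rows, grouped by role with lines between the 4 roles) in each of the 18 libraries (columns, 3 per group), as log2(CPM + 0.5) minus the mean of the DMSO low libraries. Most effectors are red in the 6 high libraries, and DMSO bulk replicate 1 is red for many of the same rows while the other DMSO bulk libraries are not.

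High cells were compared with low cells within each treatment to ask which members differ between the sorted states. Most effector genes were higher in high cells, with EPSTI1, OASL, BST2, IFI44L and GBP2 the 5 furthest up under each treatment, while USP18, ISG20, IFI16, IFI6 and LGALS3BP were lower under both treatments. Under EPZ5676, 30 of the 45 tested members were higher in high than in low cells and 5 lower (edgeR quasi-likelihood test, Benjamini-Hochberg adjusted p under 0.05). Among all 18121 tested genes, 25.8% were called higher and 23.1% lower. Under DMSO, 30 were higher and 8 lower, against 29.6% higher and 26.7% lower among all genes. The median log2 difference over the members was 1.06 under EPZ5676 (0.02 over all genes) and 0.99 under DMSO (0.03 over all genes). At least 2-fold higher were 22 members under EPZ5676, where 9.94% of all genes were, and 21 under DMSO, where 12.8% were. At least 2-fold lower was 1 member under each treatment (USP18), against 4.85% and 6.04% of all genes. The high and low libraries did not overlap, with high above low, for 30 members under EPZ5676 and 29 under DMSO (background 31.5% and 31.6%). In such bulk RNA, a lower level from fewer expressing cells and one from less RNA per cell cannot be told apart.

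Marker levels moved with this comparison. Besides the melanocyte markers given above, the sum of 8 fibroblast markers, some of which melanoma cells also express, was 631 to 777 CPM in EPZ5676 high against 100.02 to 102 CPM in EPZ5676 low, and 1151 to 1481 CPM in DMSO high against 73.6 to 77.3 CPM in DMSO low. Of the 7 fibroblast markers tested, 6 were called higher and 1 lower in high cells under each treatment. The part of the melanocyte and fibroblast markers in the result was not tested. Leukocyte markers were near 0 on both sides of the sort: their sum was 1.79 to 2.28 CPM in EPZ5676 high against 1.82 to 2.91 CPM in EPZ5676 low, and 0.831 to 1.45 CPM in DMSO high against 0.854 to 2.26 CPM in DMSO low.

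**Figure D2:**
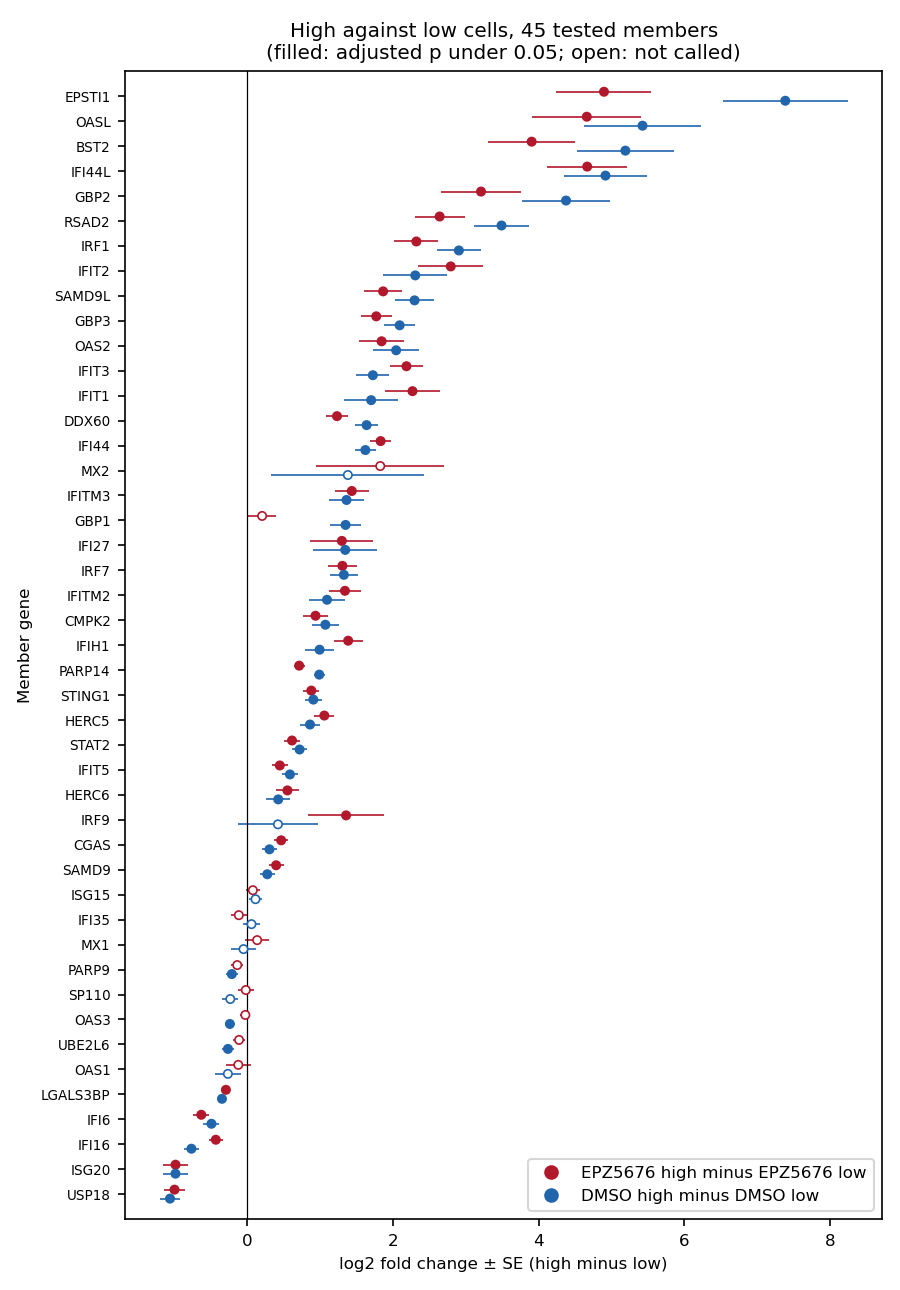
log2 fold change ± SE of high minus low cells for the 45 tested members, ordered by the value under DMSO, with EPZ5676 in red above DMSO in blue in each row. Filled points passed an adjusted p of 0.05; the 30 higher members of each treatment lie to the right of 0, and USP18 and ISG20 lie furthest to the left at about -1.

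Among the effectors, 21 of 32 tested members were higher and 3 lower in high cells under EPZ5676, and 22 were higher and 5 lower under DMSO. IFI44, an interferon-induced cytoplasmic protein, was present at 49.7, 52.4 and 50.3 CPM in EPZ5676 high against 15.3, 14.2 and 13.5 CPM in EPZ5676 low. Under DMSO, IFI44 had 57.4, 59.01 and 56.8 CPM in high and 18.2, 19.8 and 18.2 CPM in low cells. All high libraries lay above all low libraries, by 1.83 ± 0.15 log2 units under EPZ5676 (edgeR adjusted p = 3.88e-08) and 1.62 ± 0.14 under DMSO (edgeR adjusted p = 4.15e-08). Its neighbour and paralogue IFI44L gave 6.31, 6.81 and 4.36 CPM in EPZ5676 high and 0.491, 0.164 and 0.0953 CPM in EPZ5676 low. Under DMSO, IFI44L had 4.68, 6.605 and 5.27 CPM in high and 0.0982, 0.352 and 0.0899 CPM in low cells. IFI44L was nearly undetected in low cells, and the differences were 4.67 ± 0.55 and 4.92 ± 0.56 log2 units (edgeR adjusted p = 2.11e-06 and 8.33e-07).

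RSAD2 encodes viperin, an enzyme that makes a chain-terminating nucleotide. Its level was 8.89, 8.099 and 8.57 CPM in EPZ5676 high against 1.402, 1.396 and 1.29 CPM in EPZ5676 low. Under DMSO, RSAD2 had 8.199, 8.97 and 7.21 CPM in high and 0.737, 0.552 and 0.854 CPM in low cells. The groups did not overlap, and the log2 differences were 2.64 ± 0.34 under EPZ5676 and 3.49 ± 0.37 under DMSO (edgeR adjusted p = 4.89e-06 and 2.86e-07). The viperin neighbour CMPK2, a mitochondrial nucleotide kinase, was higher in high cells as well, by 0.94 ± 0.17 and 1.07 ± 0.18 log2 units (edgeR adjusted p = 8.63e-05 and 2.97e-05). EPSTI1 was close to absent from low cells: it stood at 3.45, 4.02 and 3.54 CPM in EPZ5676 high and 0.0701, 0.164 and 0.0953 CPM in EPZ5676 low. Under DMSO, EPSTI1 had 3.52, 4.002 and 3.81 CPM in high and 0.0491, 0 and 0 CPM in low cells. Under DMSO this was 196 counts in high against 1 count in low cells, a ratio of 237 with an exact 95% interval of 42.1 to 9419 that covers counting error only (edgeR adjusted p = 6.68e-07), and under EPZ5676 the log2 difference was 4.90 ± 0.65 (edgeR adjusted p = 5.87e-06).

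PARP14, a mono-ADP-ribosyltransferase, changed less but with little spread. PARP14 had 63.8, 62.9 and 57.6 CPM in EPZ5676 high and 37.4, 37.7 and 37.4 CPM in EPZ5676 low. Under DMSO, PARP14 had 75.1, 68.9 and 74.4 CPM in high and 38.6, 33.4 and 38.03 CPM in low cells. Without overlap in either treatment, the log2 differences were 0.71 ± 0.08 (edgeR adjusted p = 2.2e-07) and 0.99 ± 0.08 (edgeR adjusted p = 1.63e-09). DDX60, a helicase that works with cytosolic RNA sensors, was at 20.2, 19.9 and 24.8 CPM in EPZ5676 high against 10.02, 9.28 and 8.48 CPM in EPZ5676 low. Under DMSO, DDX60 had 23.8, 23.6 and 24.9 CPM in high and 6.88, 7.83 and 8.495 CPM in low cells. These groups were separate by 1.23 ± 0.15 log2 units under EPZ5676 and 1.64 ± 0.15 under DMSO (edgeR adjusted p = 1.06e-06 and 1.57e-08). The guanylate-binding GTPase GBP3 had 11.6, 12.8 and 12.5 CPM in EPZ5676 high and 3.78, 2.92 and 4.19 CPM in EPZ5676 low. Under DMSO, GBP3 had 14.9, 10.9 and 12.8 CPM in high and 2.996, 3.11 and 2.92 CPM in low cells. It too was higher in every high library than in any low one, by 1.77 ± 0.21 and 2.09 ± 0.21 log2 units (edgeR adjusted p = 7.38e-07 and 5.25e-08).

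IFIT3, one of the tetratricopeptide proteins that bind viral RNA or its partners, was at 51.5, 61.8 and 56.01 CPM in EPZ5676 high against 10.5, 13.8 and 12.7 CPM in EPZ5676 low. Under DMSO, IFIT3 had 44.3, 43.7 and 43.5 CPM in high and 13.1, 13.01 and 13.7 CPM in low cells. No library of the sorted groups overlapped, and the log2 differences were 2.19 ± 0.23 and 1.72 ± 0.23 (edgeR adjusted p = 3.01e-06 and 1.47e-05). The other IFIT genes were higher in high cells under both treatments: IFIT2 by 2.79 under EPZ5676 and 2.31 under DMSO, IFIT1 by 2.27 and 1.70, and IFIT5 by 0.45 and 0.59 log2 units. Large differences on low levels were seen for OASL (9.902 ± 0.624 CPM in EPZ5676 high against 0.371 ± 0.38 CPM in EPZ5676 low, SD, n = 3 each), for the virion-retaining protein tetherin, BST2 (14.3 ± 0.884 against 0.921 ± 0.4197 CPM) and for GBP2 (13 ± 1.39 against 1.35 ± 0.507 CPM). Under DMSO OASL was at 9.92 ± 2.25 CPM in high against 0.227 ± 0.0847 CPM in low cells, BST2 at 16.6 ± 3.16 against 0.447 ± 0.0448 CPM and GBP2 at 15.1 ± 2.73 against 0.725 ± 0.2301 CPM. The remaining called effectors (IFITM2, IFITM3, OAS2, GBP1, IFI27, SAMD9 and SAMD9L) were higher by 0.27 to 2.30 log2 units under DMSO. Of these, the DMSO call of SAMD9 was lost in 7 of the 26 alternatives, among them those without DMSO high replicate 1 or 3 or DMSO low replicate 2 or 3, and that of IFI27 without DMSO low replicate 1. The EPZ5676 call of IFI27 was lost without EPZ5676 high replicate 3 or EPZ5676 low replicate 2 or 3. IFITM1 and IFITM2 share exons on the same strand (22.7% of IFITM2's exonic bases), and 21.3% of IFITM3's lie opposite a non-coding RNA, so that the split of reads among these near-identical genes is uncertain.

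A smaller group of effectors was lower in high cells. ISG20, an exonuclease that degrades RNA, was at 8.01, 8.04 and 6.89 CPM in EPZ5676 high against 16.7, 13.6 and 15.3 CPM in EPZ5676 low. Under DMSO, ISG20 had 6.86, 8.196 and 8.73 CPM in high and 12.4, 16.1 and 18.6 CPM in low cells. The libraries did not overlap and the difference was -0.99 ± 0.18 log2 units under EPZ5676 and -0.99 ± 0.18 under DMSO (edgeR adjusted p = 0.000107 and 7.41e-05). IFI6, a small membrane protein that limits viral replication, had 41.5, 42.7 and 41.1 CPM in EPZ5676 high and 62.7, 66.5 and 64.95 CPM in EPZ5676 low. Under DMSO, IFI6 had 41.97, 52.7 and 39.1 CPM in high and 55.2, 61.3 and 72.3 CPM in low cells. Its log2 differences were -0.63 ± 0.11 and -0.49 ± 0.11, again with no overlap (edgeR adjusted p = 0.0001 and 0.000818). LGALS3BP, a secreted glycoprotein that binds galectins, was at 880.0, 836 and 861 CPM in EPZ5676 high and 1060.5, 1043 and 1058 CPM in EPZ5676 low. Under DMSO, LGALS3BP had 827, 864 and 808 CPM in high and 1014, 1075 and 1094 CPM in low cells. The shift was small, -0.29 ± 0.05 and -0.35 ± 0.05 log2 units, with every high library below every low one (edgeR adjusted p = 3.31e-05 and 2.77e-06).

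OAS3, which makes the oligoadenylates that activate RNase L, and the macrodomain protein PARP9 passed the test downward under DMSO and did not pass it under EPZ5676. The difference between the arms themselves did not pass for either gene (0.21 ± 0.10 and 0.07 ± 0.12 log2 units, edgeR adjusted p = 0.406 and 0.862). OAS3 was at 52.6, 56.9 and 57.6 CPM in EPZ5676 high and 53.4, 58.6 and 58.1 CPM in EPZ5676 low, which overlap. Under DMSO, OAS3 had 47.8, 43.5 and 45.6 CPM in high and 57.2, 51.9 and 52.5 CPM in low cells, which do not. The log2 differences were -0.03 ± 0.07 (edgeR adjusted p = 0.766) and -0.24 ± 0.07 (edgeR adjusted p = 0.00433). PARP9 had 32.6, 35.9 and 36.8 CPM in EPZ5676 high and 36.2, 40.2 and 39.4 CPM in EPZ5676 low. Under DMSO, PARP9 had 32.6, 30.6 and 33.6 CPM in high and 41.8, 36.4 and 33.9 CPM in low cells. Its differences of -0.14 ± 0.08 and -0.21 ± 0.08 log2 units had edgeR adjusted p = 0.17 and 0.0316, and the DMSO call was lost when DMSO high replicate 1, DMSO high replicate 2 or DMSO low replicate 1 was left out. MX1, OAS1, IFI35, SP110 and MX2 passed the test under neither treatment. Opposite-strand transcripts cover 20.9% of SP110's exonic bases.

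The 5 genes of the ISG15 pathway did not move together. ISG15, the ubiquitin-like modifier itself, was at 40.1, 45.4 and 43.3 CPM in EPZ5676 high and 44.9, 39.4 and 38.2 CPM in EPZ5676 low. Under DMSO, ISG15 had 43.3, 51.1 and 42.7 CPM in high and 35.7, 43.9 and 47.4 CPM in low cells. These libraries overlap, with log2 differences of 0.08 ± 0.09 and 0.11 ± 0.09 (edgeR adjusted p = 0.542 and 0.329). HERC5, the main human ligase for ISG15, was higher in high cells, with 39.1, 40.5 and 44.4 CPM in EPZ5676 high against 18.6, 19.7 and 21.2 CPM in EPZ5676 low. Under DMSO, HERC5 had 37.4, 44.2 and 37.97 CPM in high and 20.5, 21.9 and 23.4 CPM in low cells. Without overlap, it differed by 1.06 ± 0.14 log2 units under EPZ5676 and 0.86 ± 0.14 under DMSO (edgeR adjusted p = 4.72e-06 and 2.59e-05). HERC6, the ISG15 ligase of mice, was higher by 0.55 ± 0.16 and 0.42 ± 0.16 log2 units (edgeR adjusted p = 0.00536 and 0.0294). Its EPZ5676 call was lost without EPZ5676 low replicate 3, and its DMSO call without TMM scaling and without DMSO high replicate 1 or 3 or any DMSO low replicate. Both were lost without the 6 libraries whose no-feature share was over 16%. So were the EPZ5676 calls of BST2, GBP2, IFIT5, LGALS3BP, STAT2, IFI16 and IRF9. Only replicate 3 of EPZ5676 high remained in that fit, too few to judge a call under EPZ5676.

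USP18, the protease that removes ISG15 and restrains the interferon receptor, went the other way. It was at 6.55, 6.09 and 6.75 CPM in EPZ5676 high against 12.96, 14.2 and 11.7 CPM in EPZ5676 low. Under DMSO, USP18 had 5.53, 5.93 and 7.07 CPM in high and 13.8, 11 and 13.8 CPM in low cells. Every high library lay below every low one, by -1.001 ± 0.14 log2 units under EPZ5676 (edgeR adjusted p = 5.16e-06) and -1.06 ± 0.14 under DMSO (edgeR adjusted p = 1.59e-06). USP18 has a near-identical copy, USP41, so part of its reads may be uncertain. UBE2L6, the ISG15-conjugating enzyme, had 27.4, 29.2 and 28.8 CPM in EPZ5676 high and 30.3, 30.8 and 31.1 CPM in EPZ5676 low. Under DMSO, UBE2L6 had 28.6, 29.9 and 26.9 CPM in high and 33.6, 34 and 35.3 CPM in low cells. The high libraries lay below the low ones in both arms, by -0.11 ± 0.08 (edgeR adjusted p = 0.271) and -0.27 ± 0.08 log2 units (edgeR adjusted p = 0.00842).

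All 4 transcription factors were called higher in high cells under EPZ5676, and 3 of the 4 under DMSO. IRF1, an activator induced by interferon gamma and other stimuli, averaged 34.9 ± 3.85 CPM in EPZ5676 high against 6.95 ± 0.484 CPM in EPZ5676 low and 45.7 ± 4.28 CPM in DMSO high against 6.09 ± 0.263 CPM in DMSO low (SD, n = 3 each), or 2.32 ± 0.30 and 2.91 ± 0.30 log2 units (edgeR adjusted p = 2.52e-05 and 2.27e-06). Opposite-strand transcripts cover 22.0% of IRF1's exonic bases. IRF7, which amplifies interferon transcription, differed by 1.31 ± 0.20 and 1.33 ± 0.19, and STAT2 by 0.61 ± 0.10 and 0.72 ± 0.10 log2 units. IRF9 was barely detected (0.806 ± 0.129 CPM in EPZ5676 high against 0.293 ± 0.156 CPM in EPZ5676 low, SD, n = 3 each), and 48.4% of its exonic bases lie in another gene on the same strand. Its call under EPZ5676 (edgeR adjusted p = 0.0347) was lost with DESeq2, without EPZ5676 high replicate 1, 2 or 3, and without EPZ5676 low replicate 1 or 3.

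**Figure D3:**
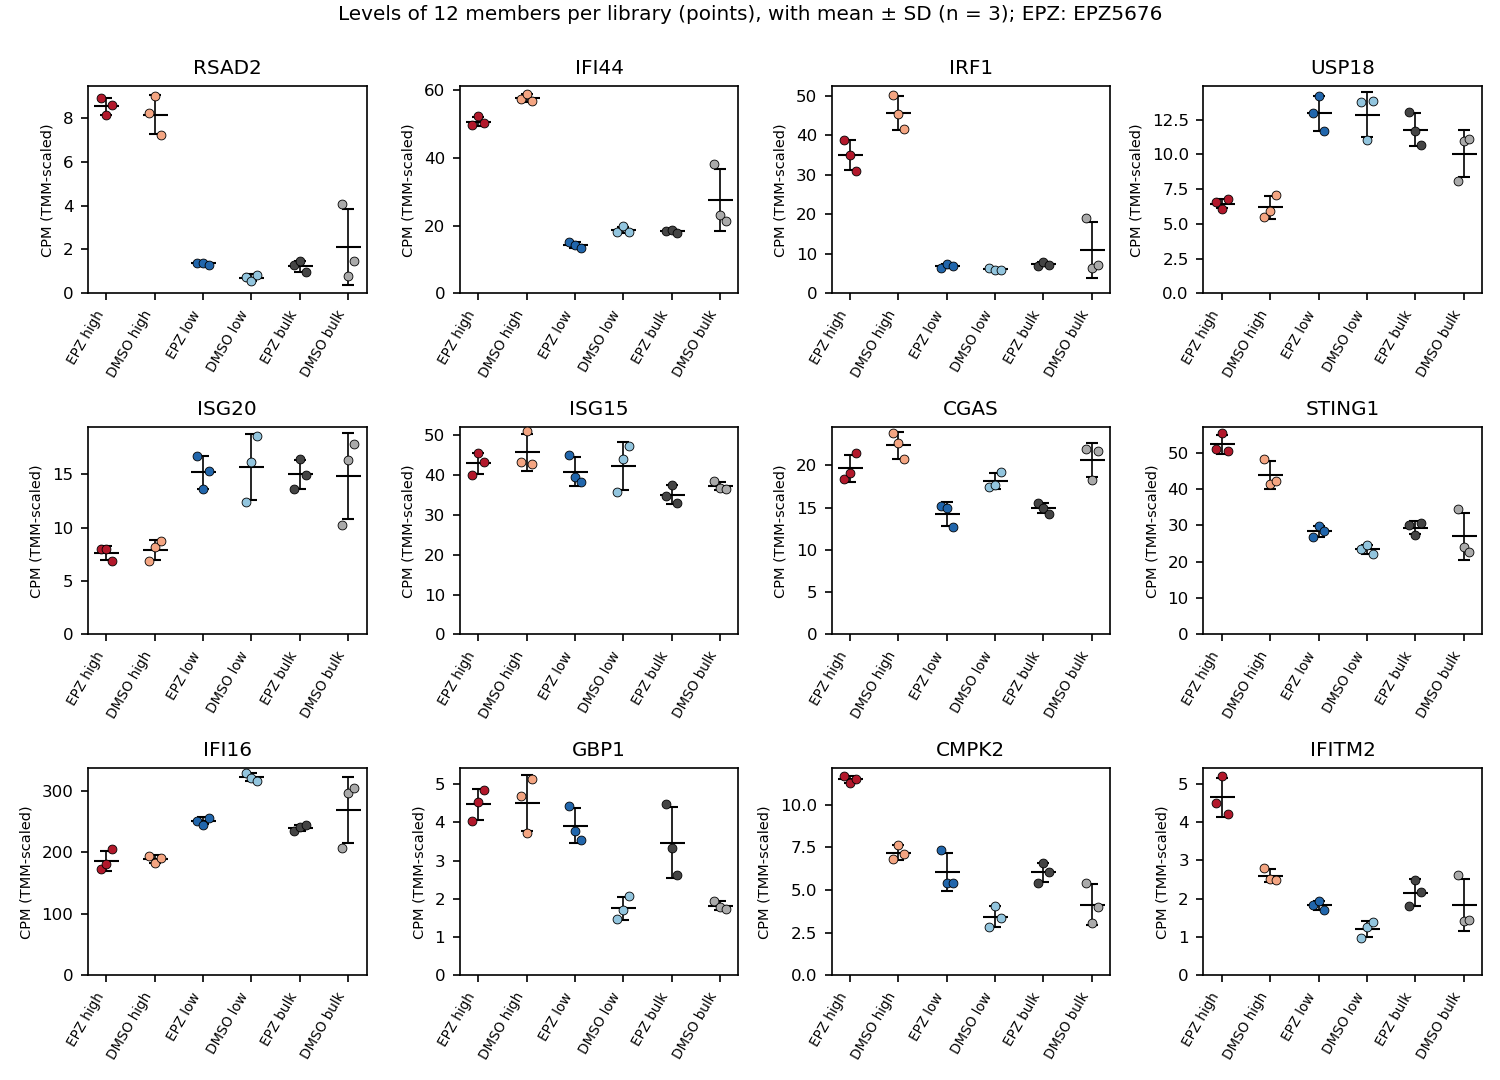
CPM of 12 members in each library (points), with mean ± SD of 3 libraries per group; each axis starts at 0. RSAD2, IFI44, IRF1 and STING1 are higher and USP18, ISG20 and IFI16 lower in the high groups than in the low ones. ISG15 overlaps between the high and low groups of each treatment. DMSO bulk replicate 1 is the outlying point of its group for RSAD2, IFI44, IRF1 and IFI16.

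Of the sensing genes, CGAS, STING1 and IFIH1 were higher and IFI16 lower in high cells. STING1, the adaptor in the endoplasmic reticulum that answers the cGAS product, was at 50.98, 55.3 and 50.5 CPM in EPZ5676 high against 26.8, 29.9 and 28.3 CPM in EPZ5676 low. Under DMSO, STING1 had 48.1, 41.3 and 42.1 CPM in high and 23.6, 24.5 and 22.1 CPM in low cells. No libraries overlapped, and the differences were 0.88 ± 0.11 and 0.91 ± 0.11 log2 units (edgeR adjusted p = 2.06e-06 and 8.76e-07). CGAS, the DNA sensor upstream of it, was at 18.4, 19.2 and 21.4 CPM in EPZ5676 high against 15.2, 14.99 and 12.7 CPM in EPZ5676 low. Under DMSO, CGAS had 23.9, 22.6 and 20.7 CPM in high and 17.5, 17.7 and 19.3 CPM in low cells. The gap was smaller, 0.46 ± 0.10 and 0.30 ± 0.10 log2 units, with high above low in both arms (edgeR adjusted p = 0.000542 and 0.0116). The DMSO call was lost without DMSO high replicate 1.

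IFI16, a nuclear DNA sensor, was at 173, 180.3 and 205 CPM in EPZ5676 high against 252, 245 and 256 CPM in EPZ5676 low. Under DMSO, IFI16 had 194, 183 and 191 CPM in high and 329, 321 and 317 CPM in low cells. Every high library lay below every low one, by -0.43 ± 0.10 log2 units under EPZ5676 and -0.77 ± 0.10 under DMSO (edgeR adjusted p = 0.00153 and 4.33e-06). IFIH1, which encodes the double-stranded RNA sensor MDA5, was higher in high cells by 1.39 ± 0.20 and 0.99 ± 0.20 log2 units (edgeR adjusted p = 1.76e-05 and 0.000337).

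The members below the count filter were nearly undetected. XAF1, a proapoptotic interferon-induced protein, had 31 counts in EPZ5676 high against 1 in EPZ5676 low, a ratio of 33.1 (exact 95% interval 5.51 to 1347, counting error only). In DMSO high it had 23 counts against 0 in DMSO low, at least 9.28-fold higher when the low group is set at 3 counts. An opposite-strand transcript covers 38.3% of XAF1's exonic bases, so the origin of these few reads is uncertain. IFITM1 had 13 counts in EPZ5676 high against 3 in EPZ5676 low and 10 in DMSO high against 2 in DMSO low, ratios of 4.62 (1.27 to 25.3) and 6.05 (1.29 to 56.8). TRIM22 had 26 counts in EPZ5676 high against 4 in EPZ5676 low and 14 in DMSO high against 5 in DMSO low.

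Upstream genes of the pathway were then read from name lists. Of 11 interferon ligand genes, none passed the filter: the 18 libraries held 102 counts of them in all, at most 16 counts for a gene in a group. Of 13 tested receptor and JAK-STAT genes, 6 were higher and 1 lower in high cells under EPZ5676, and 5 were higher and 2 lower under DMSO. Of all genes, as above, 25.8% were higher and 23.1% lower under EPZ5676, and 29.6% were higher and 26.7% lower under DMSO. SOCS1 and SOCS3, inhibitors of JAK signalling that are themselves induced by it, were higher. SOCS1 was at 7.43, 7.71 and 6.32 CPM in EPZ5676 high against 0.561, 0.246 and 0.191 CPM in EPZ5676 low, and SOCS3 at 108, 95.95 and 106 CPM in EPZ5676 high against 10.8, 10.3 and 10.9 CPM in EPZ5676 low. Under DMSO, SOCS1 was at 13.1, 15.9 and 12.5 CPM in high and 0.246, 0.251 and 0.405 CPM in low cells, and SOCS3 at 146, 142 and 132 CPM in high and 10.3, 9.29 and 8.9 CPM in low cells. The groups did not overlap for either gene, and their log2 differences under DMSO were 5.48 ± 0.76 and 3.88 ± 0.57 (edgeR adjusted p = 3.34e-05 and 6.59e-05).

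The interferon gamma receptor chain IFNGR2 was higher by 0.87 ± 0.07 and 0.69 ± 0.07 log2 units and the kinase JAK2 lower by -1.70 ± 0.16 and -1.51 ± 0.16 under EPZ5676 and DMSO (edgeR adjusted p = 8.64e-09, 4.51e-08, 7.55e-07 and 1.17e-06). TYK2 was higher by 0.38 ± 0.07 and the phosphatase gene PTPN2 lower by -0.36 ± 0.10 log2 units under DMSO. IFNAR1 did not pass the test under either treatment (0.10 ± 0.06 and 0.09 ± 0.06), nor did IFNAR2 (0.01 ± 0.10 and 0.05 ± 0.10).

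Among 19 tested nucleic acid sensors and adaptors, 8 were higher and 3 lower in high cells under EPZ5676, and 9 were higher and 4 lower under DMSO. The shares were 42.1% higher and 15.8% lower under EPZ5676 and 47.4% higher and 21.1% lower under DMSO. Both lower shares were under those of all genes (23.1% and 26.7%). RIGI, the sensor of triphosphorylated RNA, was higher by 1.76 ± 0.24 and 1.78 ± 0.24 log2 units, and ENPP1, which degrades the cGAS product, by 1.37 ± 0.13 and 1.49 ± 0.13. The adaptors TICAM1 and MAVS were higher by 0.47 ± 0.09 and 0.33 ± 0.07 under DMSO. The inflammasome adaptor PYCARD was lower by -0.63 ± 0.11 under EPZ5676 and -1.04 ± 0.12 under DMSO, and TRAF3 by -0.49 ± 0.08 and -0.67 ± 0.08. The kinase TBK1 (-0.26 ± 0.07) and the RNA-editing enzyme ADAR (-0.18 ± 0.05) were lower under DMSO. Of 33 other tested interferon-stimulated genes, 13 were higher and 8 lower under EPZ5676, and 16 were higher and 11 lower under DMSO, with medians of 0.16 and 0.26. As shares these were 39.4% higher and 24.2% lower under EPZ5676 and 48.5% higher and 33.3% lower under DMSO, so that the lower share under EPZ5676 was near that of all genes. Under DMSO these included APOL1 (3.92 ± 0.52), CASP1 (5.63 ± 0.84), NMI (1.24 ± 0.18) and SP100 (0.51 ± 0.07) upward and PLSCR1 (-1.41 ± 0.10), TRIM25 (-1.49 ± 0.17), PNPT1 (-0.64 ± 0.08) and WARS1 (-0.56 ± 0.08) downward.

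The unsorted cultures mostly lay near the low cells. Over the 30 members higher in high than in low cells under DMSO, the median log2(CPM + 0.5) relative to the DMSO low mean was 0.26 to 0.40 in the EPZ5676 bulk libraries and 0.07 to 0.14 in the EPZ5676 low libraries. It was 0.08 and 0.22 in DMSO bulk replicates 2 and 3 but 1.04 in DMSO bulk replicate 1, compared with 1.57 to 1.63 in EPZ5676 high and 1.38 to 1.49 in DMSO high libraries, which helped to choose these 30 members. In that 1 library RSAD2 was at 4.08 CPM, against 0.790 and 1.45 CPM in the other DMSO bulk libraries, and IRF1 at 19.1 CPM, against 6.37 and 7.27 CPM. Its melanocyte marker sum was the lowest of the group (4808 CPM, the group's highest being 10311 CPM), and its fibroblast marker sum the highest (458 CPM, the group's lowest being 92.8 CPM). The part of cell composition in this library's values was not tested.

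EPZ5676 was compared with DMSO in each population to ask whether DOT1L inhibition changed these genes. Few members passed the test, all by less than 1.2 log2 units, and the effectors GBP1, CMPK2, OAS3 and IFITM2 were higher and CGAS lower. In bulk cells 1 member was higher and 1 lower (background 0.497% and 0.232%). In high cells 3 were higher and 0 lower (background 1.95% and 1.04%), and DESeq2 also called 3, with 483 higher and 305 lower over all genes. In low cells 2 were higher and 0 lower (background 0.712% and 0.326%), and DESeq2 called 3, with 189 higher and 122 lower over all genes. An unadjusted p under 0.05 was reached by 10 of the 45 in bulk cells (12.3% of all genes), by 9 in high cells (16.3%) and by 8 in low cells (11.97%). The median log2 difference over the members was -0.11 for bulk, 0.05 for high and 0.12 for low cells, and between -0.01 and 0 over all genes. The sign of the bulk median turned on DMSO bulk replicate 1. With that library 19 member values in bulk cells were positive and 26 negative, and without it most were positive. These comparisons use the same libraries as those between high and low cells.

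**Figure D4:**
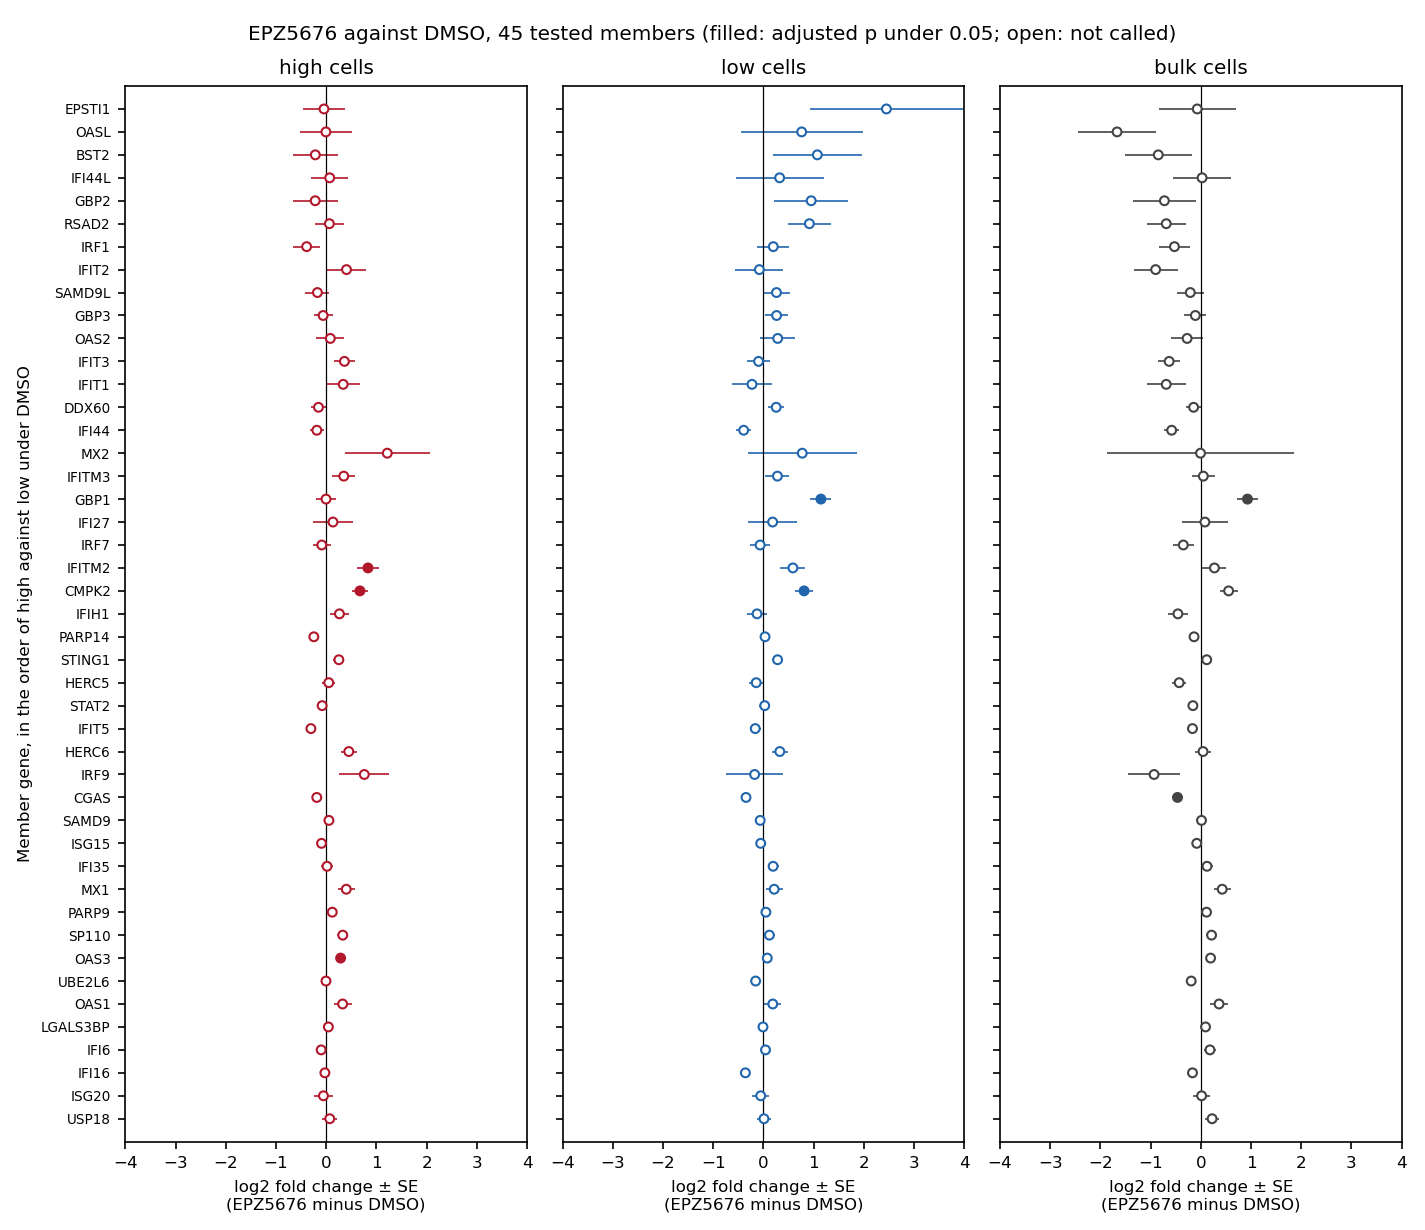
log2 fold change ± SE of EPZ5676 minus DMSO for the 45 tested members in high, low and bulk cells, in the row order of the high against low plot. Filled points passed an adjusted p of 0.05: OAS3, CMPK2 and IFITM2 in high cells, GBP1 and CMPK2 in low cells, and GBP1 and CGAS in bulk cells.

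GBP1, a guanylate-binding GTPase that coats intracellular pathogens, was at 4.46, 3.32 and 2.62 CPM in EPZ5676 bulk against 1.95, 1.79 and 1.74 CPM in DMSO bulk. In low cells it was at 4.41, 3.78 and 3.53 CPM with EPZ5676 against 1.47, 1.71 and 2.07 CPM with DMSO, and in high cells at 4.03, 4.52 and 4.83 CPM with EPZ5676 against 4.68, 3.71 and 5.13 CPM with DMSO. The treated and DMSO libraries were separate in bulk and low cells and overlapped in high cells, with log2 differences of 0.93 ± 0.22 (edgeR adjusted p = 0.0439), 1.14 ± 0.21 (edgeR adjusted p = 0.00698) and -0.00 ± 0.20 (edgeR adjusted p = 0.997). GBP1 was higher in high than in low cells under DMSO (1.35 ± 0.21) and not called under EPZ5676 (0.20 ± 0.19, edgeR adjusted p = 0.416). The call in low cells held when each of the 18 libraries was left out in turn, while that in bulk cells was lost in 13 of these 18 fits. Those were the fits without DMSO bulk replicate 2 or 3, EPZ5676 bulk replicate 1 or 2, or any of 9 sorted libraries.

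CMPK2 was at 11.7, 11.3 and 11.5 CPM in EPZ5676 high against 6.802, 7.67 and 7.14 CPM in DMSO high. It was at 7.36, 5.42 and 5.43 CPM in EPZ5676 low against 2.85, 4.07 and 3.37 CPM in DMSO low, and at 5.44, 6.595 and 6.07 CPM in EPZ5676 bulk against 5.42, 3.05 and 3.99 CPM in DMSO bulk. Every treated library lay above every DMSO library of its population, by 0.67 ± 0.17 in high (edgeR adjusted p = 0.0311), 0.81 ± 0.18 in low (edgeR adjusted p = 0.0288) and 0.55 ± 0.18 log2 units in bulk cells (edgeR adjusted p = 0.191). Leaving out any 1 of the 6 high libraries ended the call in high cells, and that in low cells ended without DMSO low replicate 1 or 3 or any EPZ5676 low replicate. The adjacent RSAD2 was not called with EPZ5676 in any population, although its EPZ5676 low libraries lay above its DMSO low libraries on the levels given before (edgeR adjusted p = 0.412). Without DMSO bulk replicate 1 it was called higher in low cells (0.91 log2 units, edgeR adjusted p = 0.0427).

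OAS3 was called higher with EPZ5676 in high cells, by 0.29 ± 0.07 log2 units on the high-cell levels given above, which do not overlap (edgeR adjusted p = 0.0223). In bulk it had 58.6, 62.4 and 55.6 CPM with EPZ5676 and 49.2, 50.9 and 54.4 CPM with DMSO, a difference of 0.19 ± 0.07 (edgeR adjusted p = 0.219), and in low cells the difference was 0.08 ± 0.07 (edgeR adjusted p = 0.724). IFITM2, which blocks the fusion of enveloped viruses, was at 4.502, 5.19 and 4.21 CPM in EPZ5676 high against 2.79, 2.51 and 2.49 CPM in DMSO high. In low cells it was at 1.82, 1.93 and 1.72 CPM with EPZ5676 against 0.982, 1.26 and 1.39 CPM with DMSO, and in bulk cells at 1.81, 2.497 and 2.17 CPM with EPZ5676 against 2.62, 1.42 and 1.45 CPM with DMSO. The libraries were separate in high and low cells and overlapped in bulk, with log2 differences of 0.83 ± 0.22 (edgeR adjusted p = 0.0417), 0.59 ± 0.25 (edgeR adjusted p = 0.337) and 0.27 ± 0.24 (edgeR adjusted p = 0.7). The OAS3 call was lost without DMSO high or EPZ5676 high replicates 2 or 3, and the IFITM2 call in 12 of 18 such fits, which include each of the 6 high libraries, EPZ5676 low replicates 1 to 3, EPZ5676 bulk replicates 2 and 3 and DMSO low replicate 2.

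CGAS was the only member called lower, in bulk cells: it was at 15.5, 15.02 and 14.3 CPM in EPZ5676 bulk against 21.9, 18.3 and 21.7 CPM in DMSO bulk, with no overlap (-0.46 ± 0.10 log2 units, edgeR adjusted p = 0.0282). The values in low cells were -0.35 ± 0.10 (edgeR adjusted p = 0.112) and in high cells -0.19 ± 0.10 (edgeR adjusted p = 0.364). Its call was lost without DMSO bulk replicate 3 or any EPZ5676 bulk replicate. STING1, for which treated libraries lay above DMSO libraries in high and low cells, was not called (0.25 ± 0.11 in high, 0.28 ± 0.11 in low, 0.12 ± 0.11 in bulk cells, lowest edgeR adjusted p = 0.251). In bulk cells STING1 was at 30.1, 27.3 and 30.6 CPM with EPZ5676 and 34.5, 24.01 and 22.6 CPM with DMSO, IFI16 at 234, 242 and 244 CPM with EPZ5676 and 207, 296 and 304 CPM with DMSO, and ISG15 at 34.7, 37.6 and 32.95 CPM with EPZ5676 and 38.4, 36.8 and 36.5 CPM with DMSO. IFI16 differed by -0.36 ± 0.10 in low (edgeR adjusted p = 0.111), -0.02 ± 0.10 in high and -0.17 ± 0.10 log2 units in bulk cells, and ISG15 by -0.06 ± 0.09, -0.09 ± 0.09 and -0.08 ± 0.10, none of which passed.

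The no-feature share was over 16% in 5 of 9 EPZ5676 libraries and 1 of 9 DMSO libraries. Without those 6 libraries each of the 7 treatment calls kept its direction. Only EPZ5676 bulk replicate 2 and EPZ5676 high replicate 3 then remained of their groups. This is too few to judge whether the calls depend on the share, so only effect sizes are given. In low cells the log2 differences were 1.06 for GBP1 and 0.66 for CMPK2. In high cells they were 0.34 for OAS3, 0.68 for CMPK2 and 0.68 for IFITM2, and in bulk cells 0.87 for GBP1 and -0.45 for CGAS. Over all 26 alternatives, GBP1 in low cells ranged between 1.03 and 1.28 log2 units.

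The count of calls also turned on DMSO bulk replicate 1. Without it 46 members were tested. With EPZ5676, 4 were then higher and 2 lower in bulk cells (background 1.98% and 0.953%). In high cells 8 were higher and 3 lower (5.85% and 4.89%), and in low cells 4 were higher and 3 lower (3.01% and 2.14%). STING1 was then called higher in bulk (0.32), high (0.25) and low cells (0.28), with edgeR adjusted p of 0.0324, 0.0184 and 0.0236. IFI16 was called lower in bulk (-0.32) and low cells (-0.36), and CGAS likewise (-0.42 and -0.35). IFITM3 was higher in bulk (0.53) and high cells (0.35), and IRF1 (-0.39), IFIT5 (-0.30) and PARP14 (-0.24) were lower in high cells. The other members gained were CMPK2 in bulk cells (0.78), HERC6 (0.46), IFIT3 (0.37) and SP110 (0.33) in high cells, all higher, and in low cells RSAD2, higher, and IFI44 (-0.40), lower.

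Of the name lists, receptor and sensor genes had 0 calls with EPZ5676 by edgeR, whichever population was compared. Among the other interferon-stimulated genes, SLFN5, of the Schlafen family, was at 47.2, 50.04 and 50.3 CPM in EPZ5676 bulk against 39.04, 32.4 and 38.4 CPM in DMSO bulk and at 46.9, 46.9 and 48.3 CPM in EPZ5676 low against 37.6, 32.1 and 35.1 CPM in DMSO low. The libraries did not overlap, and SLFN5 rose by 0.43 ± 0.09 and 0.44 ± 0.09 log2 units (edgeR adjusted p = 0.0185 and 0.0109). DDX60L, the paralogue of DDX60, was at 16.1, 20.1 and 20.4 CPM in EPZ5676 low against 13.6, 12.9 and 13.1 CPM in DMSO low, without overlap, and rose by 0.53 ± 0.12 (edgeR adjusted p = 0.0289).

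Whether the difference between high and low cells depends on treatment was tested as an interaction, the high minus low difference under EPZ5676 less that under DMSO. None of the 45 members passed in the main edgeR fit or by DESeq2. At an unadjusted p under 0.05 were 4 members (8.89%) and 11.1% of all genes, and 0.204% and 0.116% of all genes were called higher and lower. GBP1 was nearest to the threshold, at -1.15 ± 0.29 log2 units (edgeR adjusted p = 0.0966), followed by PARP14 (-0.28 ± 0.11), IFI16 (0.33 ± 0.14) and OAS3 (0.21 ± 0.10), with edgeR adjusted p of 0.33, 0.388 and 0.406. Without DMSO bulk replicate 1, IFI16 (0.34) was called higher and GBP1 (-1.14), IRF1 (-0.59) and BST2 (-1.29) lower, against a background of 3.09% and 2.61%. An edgeR fit of only the groups compared called 6 members: BST2, GBP1, GBP2, IFI16, IFIT3 and IRF1. In that fit 432 of 17821 genes were called higher and 431 lower.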

How the data were processed

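The deposited table holds raw counts per gene for 18 libraries of WM989 cells (6 groups of 3), which the authors made on the hg19 build with STAR and HTSeq (per the submitters' processing notes). Versions, annotation and strand setting are not given in the sources used here. The library kit named in the labels' protocols does not mark strand, so reads of genes that overlap on opposite strands cannot be told apart. Summary lines of HTSeq were left out of library sizes and tests; no-feature fragments were 12.8% to 28.7% and ambiguous ones 6.07% to 7.71% of each library. Gene names came from GENCODE 29 and a table of gene IDs. Shares of exonic bases that overlap other genes are from GENCODE 29 on GRCh38. The counts were made on hg19 with an annotation that is not given, so these shares may differ there.

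Counts were filtered with filterByExpr, which left 18121 genes, scaled by TMM and fitted with edgeR 4.0.16 (R 4.3.3) as 6 group means over all 18 libraries, with robust quasi-likelihood dispersion. Contrasts were tested with glmQLFTest and p-values adjusted by Benjamini and Hochberg over all tested genes, at a threshold of 0.05. The SE is the size of the log2 fold change divided by the square root of its F statistic. CPM were computed on the TMM-scaled library sizes. Count ratios of barely detected genes carry exact binomial intervals. The scripts were tested on simulated data. Plots were drawn with matplotlib 3.10.9 under Python 3.11.15, and tables made with pandas 2.3.3.

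The members and name lists were chosen with earlier results of these data known, so they carry no list test. Values per library are given for CGAS, STING1, IFI16 and ISG15, for members called with EPZ5676 or in the interaction, and for up to 8 called members with the smallest p per direction of each high against low comparison. From the name lists, up to 4 called genes per direction in the DMSO comparison and any called with EPZ5676 are named. Other members are given as counts and ranges, except that IRF1, IRF7, IRF9, STAT2, IFIH1, OASL, BST2, GBP2, the other IFIT genes, HERC6 and the interferon receptors were added for their roles after their values were seen. Alternatives were other scaling, no filter, DESeq2 1.42.0, a replicate block, the no-feature share as a covariate or limit, only the groups compared, and leaving out each library in turn.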

Additional observations from a re-analysis of the deposited data

How the results depend on the processing

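The 38 members called between high and low cells under DMSO stayed 35 to 39 and the 35 under EPZ5676 stayed 27 to 37 over 8 alternatives and 18 fits without 1 library; 33 of the 38 and 26 of the 35 were called in every one. The count of 27 came without the libraries over 16%, where only replicate 3 of EPZ5676 high was left. No value of a member called in the main fit changed sign in its comparison. Members not called were not held to this. The few treatment calls moved more. In bulk cells 2 members were called, 5 without a filter on low counts, 4 with DESeq2 and 0 with the no-feature share as a covariate. There were 0 with only the groups compared and 0 to 6 when 1 library was left out. Calls over all genes moved as well, from 90 higher and 42 lower in the main fit. They were 212 and 228 without a filter, 183 and 107 with DESeq2, 41 and 9 with the covariate, and 2 and 0 with only the groups compared. In high cells there were 3, and 5 without a filter, 10 with only the groups compared and 0 to 11 when 1 library was left out. Over all genes 354 were higher and 189 lower, 709 and 239 without a filter, and 668 and 745 with only the groups compared. In low cells there were 2, and 4 without a filter, 1 with the covariate, 6 with only the groups compared and 1 to 7 when 1 library was left out. All genes gave 129 higher and 59 lower, 229 and 144 without a filter, 107 and 47 with the covariate, and 610 and 418 with only the groups compared. The interaction had 0, and 1 without a filter, 6 with only the groups compared and 0 to 4 when 1 library was left out. Its calls over all genes were 37 higher and 21 lower, 220 and 84 without a filter, and 432 and 431 with only the groups compared. Each maximum of the last kind in the treatment comparisons and the interaction came without DMSO bulk replicate 1.

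Same-numbered libraries deviated from their group means with correlations of -0.34 to 0.30. Correlations between bulk and sorted libraries were not computed. Such values cannot show whether libraries of the same number came from one culture or sort. With a replicate block, 1 member was called in bulk cells (CGAS), 2 in high, 2 in low, 35 and 38 between high and low cells under EPZ5676 and DMSO, and 0 in the interaction. With 3 libraries a group, members under about 1 CPM, such as EPSTI1 in low cells or IRF9, rest on few counts.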
